A study of Mus musculus with 9 samples.

Results

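Lysosomal gene expression was examined in BV2, a mouse microglial line that grows indefinitely in culture. The set comprised 43 genes chosen by name for their known functions, of 55906 genes in the deposited expression table. The set was not picked by a rule on measured values, but earlier results of these data were known when it was chosen. It holds 10 lysosomal peptidases, 11 glycosidases, 2 sulfatases, 7 lipid enzymes and lipid-handling proteins, 8 membrane proteins, lysozyme and progranulin, and the 3 MiT/TFE transcription factors. All 43 genes were found by symbol, and all 43 reached the minimum for testing, a level of 1 TPM or more in at least 3 libraries, which 11260 genes of the table met.

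RNA was sequenced from 3 libraries each of cells given lipopolysaccharide together with an agent that the labels call Pilo (LPS+Pilo), cells given lipopolysaccharide alone (LPS) and cells with no treatment (Control). All groups are wild-type cells of the same line. The series asked how Pilo alters the inflammatory response of microglia, and its title refers to activation of the M3 muscarinic receptor; the sources used here give neither the meaning of Pilo nor doses or times. Libraries are labelled as biological replicates, but separate cultures are not mentioned; p-values therefore measure only the spread between these libraries, which may be technical.

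Lysosomes are acidic organelles in which hydrolases degrade proteins, glycans, sulfated sugars and lipids taken up from outside the cell or delivered by autophagy. TFEB, TFE3 and MITF are related transcription factors that bind E-box elements near the start of many lysosomal genes and raise their transcription. Microglia are the resident phagocytes of the brain and carry large lysosomes, and in humans, loss of several of these hydrolases or of progranulin causes lysosomal storage disease in the brain.

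Values are TPM, transcript levels that correct for gene length and set each library to the same total, so each value is a share of the library's transcripts. Every library summed to 1000000 TPM within rounding, and 10726 to 11123 genes per library reached 1 TPM. No read counts can be had from TPM, and the depth of each library is unknown. Of the microglia and macrophage markers, 9 of 9 were tested. Tyrobp, a signalling adaptor, lay between 657 and 1296 TPM, Spi1, a myeloid transcription factor, between 236 and 279 TPM, and Aif1, which encodes the common microglial marker IBA1, between 0.07 and 1.36 TPM, near or below the minimum. The 9 markers summed to 2058 to 2112 TPM in LPS+Pilo, 2242 to 2480 TPM in LPS and 2881 to 2904 TPM in Control. The 4 neuron markers were listed at 0 in all 9 libraries, the 4 astrocyte markers summed to at most 0.3 TPM and the 4 endothelial markers to at most 0.36 TPM; the oligodendrocyte markers summed to 4.02 to 6.76 TPM, nearly all of it Mbp. The 6 genes taken to check the LPS response, Tnf, Il6, Nos2, Ccl2, Lcn2 and Acod1, rose in LPS+Pilo and in LPS relative to Control, with median log2 fold changes of 3.34 in LPS+Pilo and 3.78 in LPS.

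The 43 lysosomal genes together took 11139, 10797 and 11456 TPM in LPS+Pilo, 12966, 13044 and 11440 TPM in LPS, and 13880, 12225 and 13135 TPM in Control, which is 1.08% to 1.39% of a library. LPS+Pilo lay lowest apart from LPS replicate 3, which fell within the LPS+Pilo range. Expression was uneven: the 10 most abundant genes held 78.9% of the sum, 8 genes averaged at least 500 TPM over the 9 libraries and 4 averaged under 10 TPM. In these bulk libraries fewer cells that express a gene and less RNA of it per cell cannot be told apart.

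Among the peptidases, Ctsd, the main aspartic protease of the lysosome, was the most abundant of all 43 genes. It had 1739, 1712 and 1956 TPM in LPS+Pilo, 2116, 2131 and 1978 TPM in LPS, and 2533, 2513 and 2631 TPM in Control. The 3 groups did not overlap and stood in the order LPS+Pilo, LPS, Control. Ctsz, a carboxypeptidase, averaged 1629 TPM over all libraries. The cysteine protease genes Ctsb, Ctsl and Ctss averaged 699, 488 and 137 TPM. Ctsa, which encodes the protective protein of beta-galactosidase and neuraminidase, averaged 622 TPM and Lgmn, the asparaginyl endopeptidase that processes cathepsins, 417 TPM. Ctsc, which activates serine proteases of granules, averaged 73.8 TPM, the tripeptidyl peptidase gene Tpp1 43.3 TPM and the aminopeptidase gene Ctsh 14.8 TPM.

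The glycosidase genes were lower than the leading peptidase genes on the same TPM scale. Hexa, the alpha subunit of beta-hexosaminidase, was the highest, with 280.0, 294 and 326 TPM in LPS+Pilo, 283, 289 and 275 TPM in LPS, and 332, 346 and 356 TPM in Control. All 3 Control libraries lay above the 6 treated ones, which overlapped each other. Gusb, the beta-glucuronidase, averaged 226 TPM. The genes of acid alpha-glucosidase (Gaa), neuraminidase (Neu1), alpha-galactosidase (Gla), alpha-fucosidase (Fuca1), beta-galactosidase (Glb1), beta-mannosidase (Manba), alpha-mannosidase (Man2b1) and the heparan sulfate enzyme alpha-N-acetylglucosaminidase (Naglu) averaged 18.4 to 63.7 TPM, and Idua, the alpha-iduronidase gene, 2.97 TPM. Of the sulfatases, Arsb, which removes sulfate from dermatan sulfate, had 19.1, 17.9 and 17.65 TPM in LPS+Pilo, 26.2, 24.2 and 16.98 TPM in LPS, and 33.1, 21.4 and 22.7 TPM in Control. LPS replicate 3 lay below every LPS+Pilo library. Arsa, which acts on the myelin lipid sulfatide, averaged 10.1 TPM.

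In the lipid class, Psap, the precursor of the saposins that present sphingolipids to their hydrolases, had 389, 382 and 406 TPM in LPS+Pilo, 486, 479 and 387 TPM in LPS, and 625, 525 and 594 TPM in Control. Control lay above both treated groups, and LPS replicate 3 stood among the LPS+Pilo libraries. Npc2, which hands cholesterol to the membrane transporter NPC1, averaged 247 TPM. The thioesterase gene Ppt1, the acid ceramidase gene Asah1, the acid lipase gene Lipa and the GM2 activator gene Gm2a averaged 41.2, 34.8, 19.5 and 14.2 TPM, and the acid sphingomyelinase gene Smpd1 6.03 TPM.

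Of the membrane proteins, Cd68, a heavily glycosylated macrophage protein, had 976, 992 and 1036 TPM in LPS+Pilo, 1059, 1018 and 994 TPM in LPS, and 1216, 1102 and 1219 TPM in Control, with Control above both treated groups. Gpnmb, a transmembrane glycoprotein of lipid-laden phagocytes, averaged 1048 TPM and the tetraspanin gene Cd63 880.0 TPM. Lamp1 and Lamp2, the abundant glycoproteins of the lysosomal membrane, averaged 281 and 33.9 TPM. The calcium channel gene Mcoln1, the cholesterol transporter gene Npc1 and Scarb2, the receptor that carries glucocerebrosidase, averaged 43.6, 17.2 and 8.35 TPM. Grn, which encodes progranulin, had 537, 551 and 553 TPM in LPS+Pilo, 653, 611 and 519 TPM in LPS, and 661, 574 and 659 TPM in Control; LPS overlapped both other groups, while every LPS+Pilo library lay below every Control library. Lyz2, the macrophage lysozyme gene, averaged 247 TPM. Its near-identical paralog Lyz1 lay between 0 and 0.09 TPM and the pseudogene Cd63-ps between 0 and 1.08 TPM; the assignment of reads shared with such copies is not stated.

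The transcription factor genes were far lower in TPM than the leading hydrolase genes. By the mean over all 9 libraries Tfe3 was the highest, at 21.5 TPM, with 18.4, 21.8 and 19.9 TPM in LPS+Pilo, 21.9, 20.3 and 18.7 TPM in LPS, and 25.8, 23.1 and 23.9 TPM in Control. Tfeb averaged 17.6 TPM over all libraries, with 9.26 ± 0.877 TPM in LPS+Pilo, 12.2 ± 0.666 TPM in LPS and 31.2 ± 4.12 TPM in Control (SD, n = 3 each). It was below Tfe3 in every treated library and above it in every Control library. Mitf had 1.4, 1.15 and 1.51 TPM in LPS+Pilo, 1.73, 1.86 and 1.12 TPM in LPS, and 2.64, 1.38 and 2.04 TPM in Control, and the groups overlapped.

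**Figure D1:**
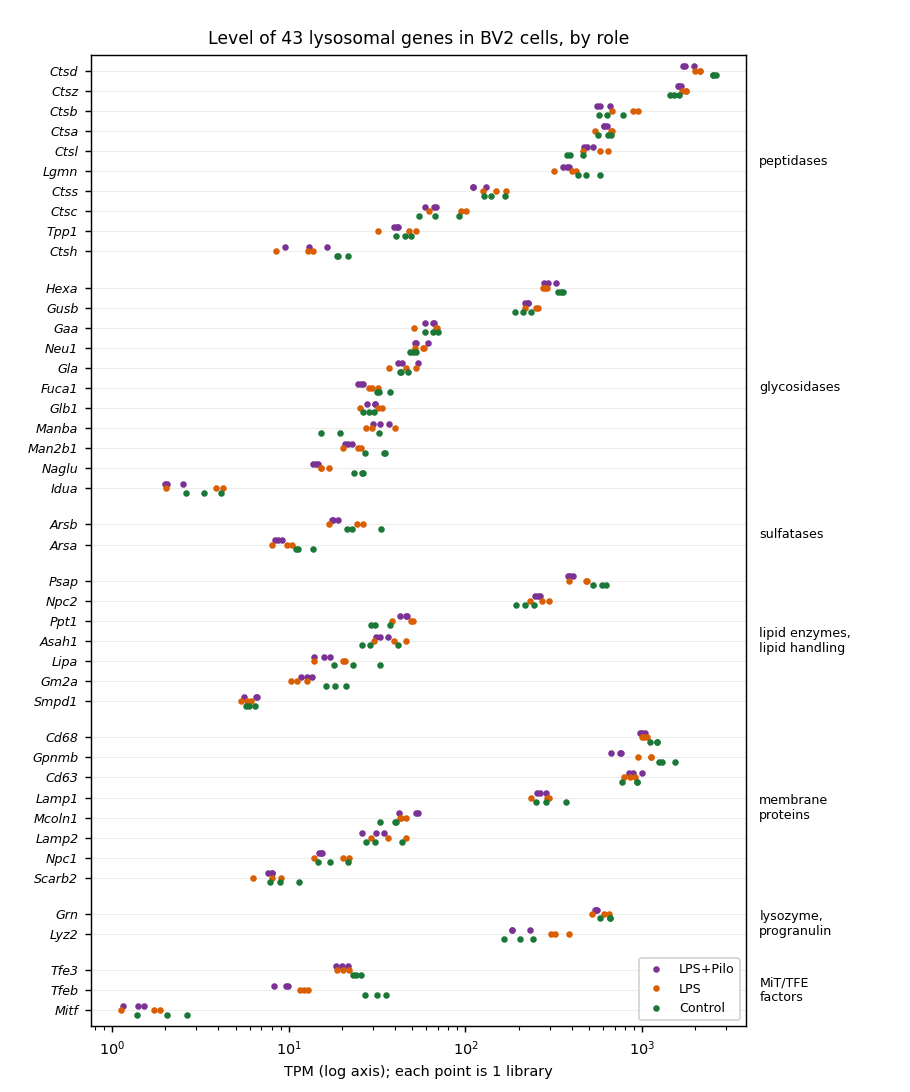
TPM of the 43 lysosomal genes on a logarithmic axis, 1 point per library, with genes grouped by role and ordered by mean level within each role; colours mark LPS+Pilo, LPS and Control. Levels run between 1.12 TPM for Mitf and 2631 TPM for Ctsd, and the Control points of Tfeb, Naglu, Gpnmb, Ctsd and Psap lie to the right of the LPS+Pilo points.

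Several libraries deviated as a whole from their group, and the lysosomal genes moved with them. On the log2(TPM + 1) scale the median deviation of the 43 genes from their group mean was 0.03, -0.04 and 0.02 in LPS+Pilo, 0.09, 0.09 and -0.20 in LPS, and 0.15, -0.14 and -0.01 in Control. The same median over all tested genes was 0.05, -0.04 and -0.01 in LPS+Pilo, 0.06, 0.08 and -0.15 in LPS, and 0.13, -0.12 and -0.02 in Control. In LPS replicate 3 only 3 of the 43 genes lay above their group mean, and in Control replicate 2 only 4, against 36 in Control replicate 1. In the results below, libraries were left out to see how far the calls depended on them. Such fits also hold fewer libraries, so a lost call is no measure of a library's deviation.

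**Figure D2:**
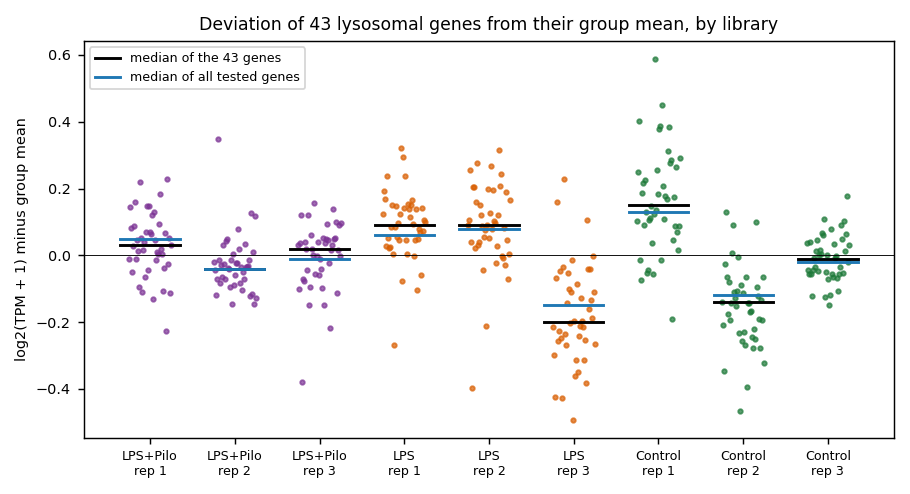
Deviation of each of the 43 lysosomal genes from its group mean in log2(TPM + 1), by library in the order LPS+Pilo, LPS, Control; black bars are the median of the 43 genes and blue bars that of all tested genes. LPS replicate 3 (-0.20) and Control replicate 2 (-0.14) lie low and Control replicate 1 (0.15) lies high, for the lysosomal genes and for all genes alike.

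LPS alone was first compared with Control. Tfeb, Naglu and Gm2a fell, Lyz2 rose, and the other 39 lysosomal genes did not pass. The called share was 9.3% of the 43 genes, against 7.76% of all tested genes (limma with Benjamini-Hochberg adjustment over the 11260 genes, adjusted p under 0.05). The share in either direction was thus close to the background. By direction, 1 gene of the 43 was higher, 2.33% against 4.12% of all tested genes, and 3 were lower, 6.98% against 3.64%. These shares rest on few genes, and the number called changed with scaling, as given below. The median log2 fold change of the 43 genes was -0.06, against 0.07 over all tested genes.

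Tfeb had 12.8, 11.5 and 12.1 TPM in LPS, against 31.4, 27.1 and 35.3 TPM in Control. The LPS libraries lay close together and all were below every Control library. Tfeb thus fell, with a log2 fold change of -1.29 ± 0.13 (SE, adjusted p = 2.97e-04), the largest change in size among the 43 genes. Naglu, whose product trims heparan sulfate, had 16.9, 15.2 and 15.1 TPM in LPS, against 25.9, 23.3 and 26.4 TPM in Control, again without overlap. It fell, with a log2 fold change of -0.65 ± 0.10 (adjusted p = 0.00455). Both genes kept their call under all 18 alternative settings.

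Gm2a, the cofactor that lifts GM2 ganglioside to beta-hexosaminidase, had 12.6, 11.1 and 10.2 TPM in LPS, against 21.05, 16.3 and 18.4 TPM in Control. The groups did not overlap, and Gm2a fell, with a log2 fold change of -0.66 ± 0.13 (adjusted p = 0.0146). The adjusted p was 0.0639 when Control replicate 3 was left out, 0.0559 when LPS replicate 2 was left out and 0.0551 with only LPS and Control in the fit, so each ended the call; the range over 18 settings was 9.42e-04 to 0.0639. Lyz2 was the only called gene that rose, with 323, 384 and 307 TPM in LPS, against 241, 165 and 202 TPM in Control. All LPS libraries lay above all Control libraries, with a log2 fold change of 0.74 ± 0.15 (adjusted p = 0.0179). The adjusted p was 0.0507 when Control replicate 2 was left out, 0.0631 when Control replicate 3 was, 0.0751 when LPS replicate 2 was and 0.0534 with no filter on low values, so each ended the call; the range was 0.00501 to 0.0751.

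By role, 0 of 10 peptidase genes were called by limma in LPS relative to Control, although 5 had an unadjusted p under 0.05. Their log2 fold changes ran from -0.74 for Ctsh to 0.44 for Ctsl, with a median of 0.02. Ctsd had a log2 fold change of -0.30 ± 0.08 (adjusted p = 0.0502), just outside the threshold. It passed with a pseudocount of 0.1 (adjusted p = 0.042) and with a filter of 5 TPM (0.0391), within a range of 0.0391 to 0.187. Of the 11 glycosidase genes 1 was called, with a median of -0.02, and of the 7 lipid genes 1 was called, with a median of -0.06. Ppt1 had 50.4, 49.0 and 38.5 TPM in LPS, against 37.6, 29.3 and 30.9 TPM in Control; its log2 fold change of 0.48 ± 0.13 had an adjusted p of 0.0571. Ppt1 passed as higher in 5 of 18 settings (range 0.0023 to 0.192). Ctsl, at 0.44 ± 0.13 (adjusted p = 0.068), did so in 5 (range 0.0029 to 0.228). Man2b1, at -0.43 ± 0.13 (adjusted p = 0.083), passed as lower in 3. Of the membrane protein genes 0 of 8 were called by limma, with 2 at an unadjusted p under 0.05, and 0 of 2 sulfatase genes, with 1. Tfe3 and Mitf had log2 fold changes of -0.25 ± 0.11 (adjusted p = 0.212) and -0.22 ± 0.19 (adjusted p = 0.53). That Tfeb differed from its 2 relatives in response was not tested.

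Without adjustment, 19 of the 43 genes had p under 0.05, 44.2% against 22.7% of all tested genes. All tested genes, the background here and in the other comparisons, were not matched to the 43 genes on level. Only 4 of the 43 genes averaged under 10 TPM. The LPS and Control libraries did not overlap for 4 genes that were higher in LPS (Ctsz, Ppt1, Mcoln1 and Lyz2), 9.3% against a background of 11.2%. They did not overlap for 13 genes that were lower in LPS, 30.2% against 13.1%. These 13 were Ctsd, Ctsh, Lgmn, Hexa, Naglu, Man2b1, Arsa, Psap, Gm2a, Cd68, Gpnmb, Tfeb and Tfe3.

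The count changed with single libraries. Without Control replicate 1, 7 lysosomal genes were called in LPS relative to Control, 4 of them higher, where 998 of all genes were called, 671 of them higher. Without LPS replicate 3, 6 lysosomal genes were called, 3 of them higher, where 1020 of all genes were called, 688 of them higher. With all libraries, all genes gave 874 calls, 464 of them higher, so the shift to higher calls ran through the whole table. Without Control replicate 3 or without LPS replicate 2 the count of lysosomal genes was 2, where all genes gave 414 and 466 calls. With Control replicate 1 and LPS replicate 3 both left out, a setting chosen after the values were seen, 16 lysosomal genes were called, 11 higher and 5 lower, where all genes gave 3586 calls, 2930 higher and 656 lower, and the median log2 fold change of the 43 genes was 0.13, against 0.20 for all tested genes. That setting drops the high Control library and the low LPS library, so it raises LPS relative to Control by construction. Control replicate 2, whose median deviation was -0.14, was kept. Ctsb (0.61), Ctsc (0.68), Ctsl (0.66), Manba (0.91), Asah1 (0.62), Ppt1 (0.70), Npc2 (0.47) and Npc1 (0.38) were among those higher at that setting, and Tfeb, Naglu and Gm2a remained lower.

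**Figure D3:**
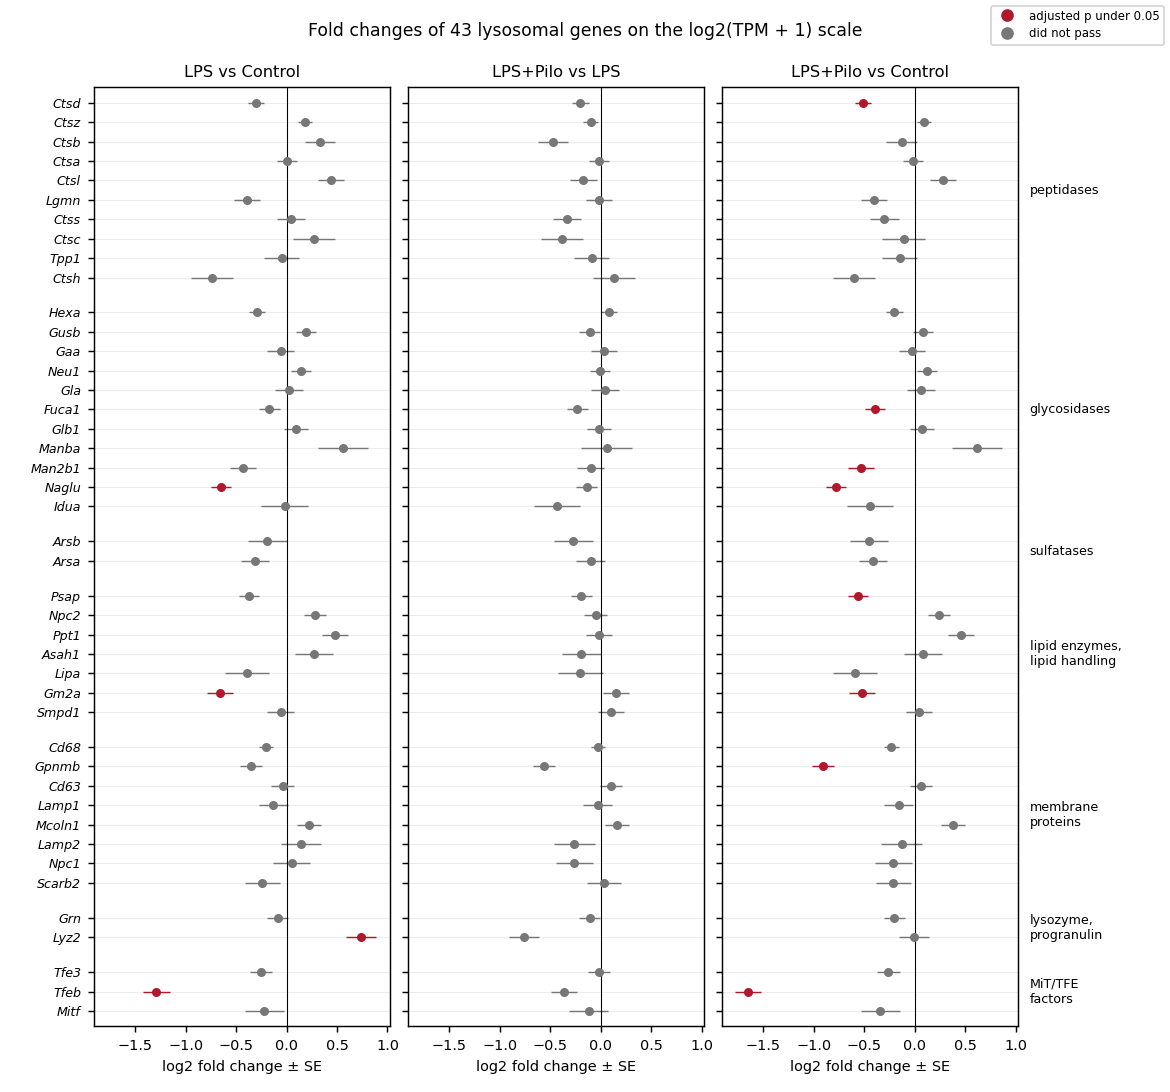
Log2 fold change with its standard error (limma, log2(TPM + 1) scale) of the 43 lysosomal genes in the 3 comparisons, grouped by role; red points had an adjusted p under 0.05 and grey points did not. Red points number 4 for LPS vs Control, 0 for LPS+Pilo vs LPS and 8 for LPS+Pilo vs Control, with Tfeb farthest to the left at -1.29 and -1.65.

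LPS+Pilo was next set against LPS, the question being what Pilo adds. No lysosomal gene passed: limma called 0 of 43, against 0.0444% of all tested genes, which is 5 genes, 1 higher (0.00888%) and 4 lower (0.0355%). Without adjustment 7 of the 43 genes had p under 0.05, 16.3% against 6.76% of all tested genes, and all 7 had lower levels in LPS+Pilo. The median log2 fold change of the 43 genes was -0.10, against -0.05 over all tested genes. Of the 43 genes 33 were below and 10 above 0, where 6786 of all tested genes were below and 4472 above. The LPS+Pilo and LPS libraries did not overlap for 8 genes that were lower in LPS+Pilo (Gpnmb, Lyz2, Ctsb, Tfeb, Ctsd, Ctsz, Naglu and Fuca1), 18.6% against 6.63%, and for 0 that were higher, against 5.58%.

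Gpnmb had 754, 662 and 747 TPM in LPS+Pilo, against 1121, 1125 and 949 TPM in LPS. Every LPS+Pilo library was below every LPS library, at a log2 fold change of -0.56 ± 0.11 (unadjusted p = 4.57e-04, adjusted p = 0.255). With Control replicate 1 and LPS replicate 3 left out it passed, at -0.64 (adjusted p = 0.0495), the only such case among the 43 genes in 18 settings; its range was 0.0495 to 0.787. That setting drops the lowest LPS library of Gpnmb, which makes the difference larger by construction. Lyz2 had 233, 183 and 184 TPM in LPS+Pilo, against 323, 384 and 307 TPM in LPS. The groups were again apart, at a log2 fold change of -0.76 ± 0.15 (unadjusted p = 6.97e-04, adjusted p = 0.271). Lyz2 in LPS+Pilo overlapped Control, which had 241, 165 and 202 TPM. The comparison with Control shares its LPS libraries with this one, so the opposite signs of Lyz2 in LPS relative to Control and in LPS+Pilo relative to LPS are not independent.

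Ctsb, a cysteine protease, had 660.4, 579.8 and 558 TPM in LPS+Pilo, against 945, 889.8 and 672 TPM in LPS, and the lowest LPS library was close to the highest LPS+Pilo library. Its log2 fold change was -0.47 ± 0.15 (adjusted p = 0.533). Tfeb had 9.62, 8.26 and 9.9 TPM in LPS+Pilo, below its 12.8, 11.5 and 12.1 TPM in LPS, at a log2 fold change of -0.36 ± 0.13 (adjusted p = 0.571). The remaining genes with an unadjusted p under 0.05 were Ctsd at -0.20 ± 0.08 (adjusted p = 0.658), Ctss at -0.33 ± 0.14 (0.691) and Fuca1 at -0.23 ± 0.10 (0.707). The highest value of the 43 genes was that of Mcoln1, at 0.16 ± 0.12 (adjusted p = 0.857). Medians were -0.13 for the peptidases, -0.02 for the glycosidases, -0.05 for the lipid genes, -0.03 for the membrane proteins and -0.12 for the 3 transcription factors. Leaving out LPS replicate 3, the low library of its group, took the median of the 43 genes to -0.18, while leaving out LPS replicate 1 took it to -0.04.

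LPS+Pilo was also compared with Control, which measures both treatments together and shares the Control libraries with the comparison of LPS alone. Tfeb, Naglu, Man2b1, Fuca1, Ctsd, Psap, Gm2a and Gpnmb fell, and no lysosomal gene rose. The 8 calls were 18.6% of the 43 genes, against 10.2% of all tested genes. Lower calls were 8 where 5.3% of all tested genes were lower, and higher calls were 0 by limma where 4.85% were higher; 3 of the 43 genes that were higher in LPS+Pilo had an unadjusted p under 0.05. In either direction, 19 genes had an unadjusted p under 0.05, 44.2% against 24%. The median log2 fold change of the 43 genes was -0.20, against 0.02 over all tested genes.

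Of the regulators, Tfeb, with 9.62, 8.26 and 9.9 TPM in LPS+Pilo, against 31.4, 27.1 and 35.3 TPM in Control, fell by 1.65 ± 0.13 on the log2 scale (adjusted p = 4.96e-05). The highest LPS+Pilo library was well under the lowest Control library. The log2 fold changes of Tfe3 and Mitf were -0.26 ± 0.11 (adjusted p = 0.166) and -0.34 ± 0.19 (adjusted p = 0.332). Gpnmb, a gene that MITF is known to activate in pigment cells and osteoclasts, had 754, 662 and 747 TPM in LPS+Pilo, against 1527, 1242 and 1303 TPM in Control. It fell, with a log2 fold change of -0.91 ± 0.11 (adjusted p = 7.30e-04), and the LPS libraries (1121, 1125 and 949 TPM) lay between the other groups; in LPS relative to Control its value was -0.35 ± 0.11 (adjusted p = 0.0861).

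Ctsd, at the library values given above, fell by 0.51 ± 0.08 in log2 fold change (adjusted p = 0.00398). Its mean was 1802 ± 134 TPM in LPS+Pilo and 2559 ± 63.5 TPM in Control (SD, n = 3 each), the largest difference in TPM among the 43 genes. The other peptidase genes did not pass; Ctsl, at 0.28 ± 0.13, and Ctsz, at 0.09 ± 0.07, were above 0. Psap fell by 0.56 ± 0.10 in log2 fold change (adjusted p = 0.00849), with 392 ± 12.1 TPM in LPS+Pilo and 581 ± 51.2 TPM in Control (SD, n = 3 each). Naglu had 14.65, 13.8 and 14.2 TPM in LPS+Pilo, against 25.9, 23.3 and 26.4 TPM in Control. The LPS+Pilo libraries were nearly alike and far below Control, at a log2 fold change of -0.78 ± 0.10 (adjusted p = 0.00126). Tfeb, Gpnmb, Ctsd, Psap and Naglu kept this call under all 18 alternative settings.

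The other 3 calls were near the threshold. Man2b1, which removes mannose from glycans, had 22.9, 21.6 and 20.9 TPM in LPS+Pilo, against 34.9, 27.1 and 34.6 TPM in Control, and 25.7, 24.8 and 20.3 TPM in LPS. Control was above the other libraries, and the log2 fold change of LPS+Pilo over Control was -0.53 ± 0.13 (adjusted p = 0.0312). Fuca1, which removes fucose, had 24.65, 25.5 and 26.2 TPM in LPS+Pilo, against 37.2, 31.7 and 32.6 TPM in Control, without overlap, and 28.35, 31.97 and 29.7 TPM in LPS. Its log2 fold change of LPS+Pilo over Control was -0.39 ± 0.10 (adjusted p = 0.0311). Gm2a had 12.7, 11.65 and 13.5 TPM in LPS+Pilo, against 21.05, 16.3 and 18.4 TPM in Control, also without overlap, at -0.52 ± 0.13 (adjusted p = 0.0348). All 3 calls were lost without Control replicate 1, without Control replicate 3 and without any single LPS+Pilo library; the highest adjusted p was 0.127 for Man2b1 (Control replicate 3 left out), 0.133 for Gm2a (LPS+Pilo replicate 2) and 0.104 for Fuca1 (LPS+Pilo replicate 1), and the lowest over 18 settings 0.00315, 0.00454 and 0.014. Gm2a was also lost without LPS replicate 2 (0.0548) and, like Man2b1, without a filter on low values (0.0512, and 0.0567 for Man2b1); Fuca1 was lost with only the 2 groups compared in the fit (0.0533).

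**Figure D4:**
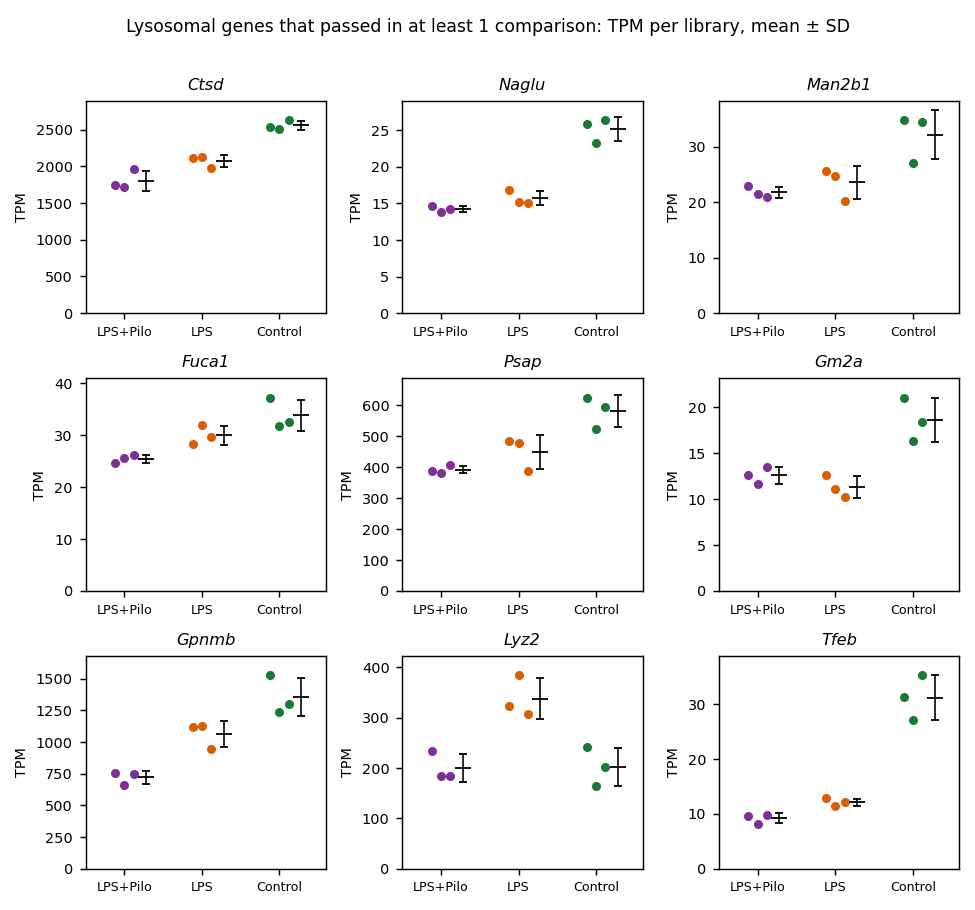
TPM of the 9 lysosomal genes called in at least 1 comparison, 1 point per library in the order LPS+Pilo, LPS, Control, with the mean and SD (n = 3) beside the points and axes that start at 0. Tfeb and Naglu are low in both treated groups, Lyz2 is high in LPS only, and Gpnmb and Ctsd step up across LPS+Pilo, LPS and Control.

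LPS+Pilo and Control did not overlap for 18 lysosomal genes that were lower in LPS+Pilo, 41.9% against 15.6% of all tested genes. Beside the 8 called genes these were Ctsh, Lgmn, Hexa, Idua, Arsa, Arsb, Lipa, Cd68, Grn and Tfe3. For 4 genes, 9.3% against 14.9%, LPS+Pilo was the higher group without overlap: Ctsl, Ppt1, Npc2 and Mcoln1. Ppt1, at 0.46 ± 0.13 (adjusted p = 0.0571), and Mcoln1, at 0.38 ± 0.12 (adjusted p = 0.0872), came nearest to a call in that direction. Mcoln1 had 41.8, 53.8 and 52.7 TPM in LPS+Pilo, against 39.9, 32.7 and 40.3 TPM in Control.

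Set side by side by role for LPS+Pilo relative to Control, 1 of 10 peptidase genes, 3 of 11 glycosidase genes, 2 of 7 lipid genes, 1 of 8 membrane protein genes and 1 of 3 transcription factor genes fell, and limma called 0 of 2 sulfatase genes, both with an unadjusted p under 0.05, and 0 of 2 in the pair of lysozyme and progranulin, with 0. The median log2 fold change was -0.14 for the peptidases, -0.03 for the glycosidases, 0.04 for the lipid genes, -0.18 for the membrane proteins, -0.43 for the sulfatases and -0.34 for the transcription factors. Within the glycosidases the values ran from -0.78 for Naglu to 0.62 for Manba, and within the lipid genes from -0.59 for Lipa to 0.46 for Ppt1, so neither class moved one way. Manba had 36.8, 29.8 and 33.0 TPM in LPS+Pilo, against 32.5, 15.1 and 19.4 TPM in Control; only Control replicate 1 lay within the LPS+Pilo range, and without that library Manba passed, at 0.91 (adjusted p = 0.0144, range 0.0132 to 0.383). The summed level of the membrane protein genes was 2960, 2906 and 3150 TPM in LPS+Pilo, 3376, 3409 and 3186 TPM in LPS, and 3994, 3613 and 3833 TPM in Control, and the 3 groups did not overlap. Much of this step was Gpnmb, which averaged 721, 1065 and 1357 TPM in the same order. Cd63 averaged 912, 853 and 876 TPM and overlapped between groups, and Mcoln1 was higher in LPS+Pilo than in Control. The sum is therefore no measure of the class as a whole. The summed level of the peptidase genes was 5784, 5563 and 5885 TPM in LPS+Pilo, 6785, 6838 and 5883 TPM in LPS, and 6976, 6156 and 6551 TPM in Control. No difference between role classes was tested.

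Scaling changed how many lysosomal genes passed. In LPS+Pilo relative to Control 14 lysosomal genes were called with quantile normalization, 13 of them lower, where 1726 of all genes were called, 990 of them lower. With median-of-ratios scaling the counts were 14 lysosomal genes, 13 lower, and 1521 of all genes, 792 lower. In LPS relative to Control quantile normalization called 10 lysosomal genes, 8 of them lower, and 1516 of all genes, 902 lower. Median-of-ratios scaling called 11 lysosomal genes there, 8 of them lower, and 1297 of all genes, 668 lower. Ppt1 was the called gene that was higher under both scalings in LPS+Pilo relative to Control, and Arsa, Arsb and Lipa were lower under both. With Control replicate 1 and LPS replicate 3 left out, 13 lysosomal genes were called in LPS+Pilo relative to Control, 9 lower and 4 higher (Ctsl, Manba, Ppt1 and Npc2), where all genes gave 1967 calls, 693 lower and 1274 higher. That setting drops the high Control library, so it shifts LPS+Pilo upward relative to Control by construction.

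Promoter sequences were read for the E-box letters that MiT/TFE factors are known to bind, because Tfeb was the gene with the largest change. RefSeq promoters (build GRCm38.p6, 250 bases before to 50 after each annotated start) were listed for 39 of the 43 genes; Ctsb, Ctsh, Asah1 and Npc1 had no entry. The core CACGTG stood in a promoter of 11 of these 39 genes (28.2%), against 8.09% of 27025 genes in the table. The extended letters TCACGTGA, which contain the core, stood in 4 of 39 (10.3%; Ctsa, Ctsd, Gla and Mcoln1), against 1.12%. The 27025 genes were not filtered on expression, whereas all lysosomal genes passed the filter. These shares therefore do not set lysosomal genes against other expressed genes. Both motifs read the same on either strand. The stretches shown are those of Ctsd and Naglu, the called genes with the core, of Ctsa, Gla and Mcoln1, the other genes with the extended letters, and of Lamp1, which has 4 cores. All are given 5′ to 3′ on the strand of the gene, with the core in capitals.
Ctsd: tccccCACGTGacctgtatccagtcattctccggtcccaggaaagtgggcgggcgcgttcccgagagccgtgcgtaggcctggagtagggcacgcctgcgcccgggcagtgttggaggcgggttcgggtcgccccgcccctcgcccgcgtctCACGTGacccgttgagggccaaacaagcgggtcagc
Naglu: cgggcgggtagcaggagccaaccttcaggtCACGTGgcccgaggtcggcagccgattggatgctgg
Ctsa: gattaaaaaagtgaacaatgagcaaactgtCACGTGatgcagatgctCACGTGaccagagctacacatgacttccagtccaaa
Gla: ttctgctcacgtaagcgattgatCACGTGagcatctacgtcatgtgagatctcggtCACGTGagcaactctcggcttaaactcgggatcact
Mcoln1: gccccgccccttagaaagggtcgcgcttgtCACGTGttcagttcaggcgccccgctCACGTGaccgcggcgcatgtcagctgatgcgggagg
Lamp1: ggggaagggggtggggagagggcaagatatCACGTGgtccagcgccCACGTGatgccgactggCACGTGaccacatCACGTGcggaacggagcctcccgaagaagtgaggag

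The Ctsd stretch is chr7:142387890-142388077 on the minus strand, with cores that begin at -245 and -98 relative to the annotated start; the core at -98 is the extended one. The Naglu stretch is chr11:101069991-101070056 on the plus strand, with a core at -73. Those of Ctsa (chr2:164833731-164833813, plus strand) and Gla (chrX:134601164-134601255, minus strand) each hold 2 extended matches. Mcoln1 (chr8:3500418-3500509, plus strand) has cores at -71 and -45, and Lamp1 (chr8:13159070-13159181, plus strand) has its first at -61. The 11 genes with a core were Arsa, Ctsa, Ctsd, Ctsl, Gaa, Gla, Glb1, Lamp1, Lgmn, Mcoln1 and Naglu. Their fold changes went in both directions: in LPS+Pilo relative to Control Ctsd and Naglu fell, while Ctsa (-0.02), Gla (0.06), Glb1 (0.07), Gaa (-0.03) and Lamp1 (-0.16) were near 0, Lgmn (-0.40) and Arsa (-0.41) were below 0 without overlap with Control, and Ctsl (0.28) and Mcoln1 (0.38) were above 0, none of these 9 past the test. Of the other called genes Gm2a, Psap, Man2b1, Fuca1, Gpnmb, Lyz2 and Tfeb, no core was found in the windows. A match describes letters in a window and is no measurement of binding.

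Other genes of the lysosome were taken from lists. Of 19 tested further hydrolase genes, 6 fell in LPS relative to Control and 6 in LPS+Pilo relative to Control, and none rose by limma, with 2 higher at an unadjusted p under 0.05 in LPS and 0 in LPS+Pilo. Of all tested genes, 3.64% fell and 4.12% rose in LPS relative to Control. In LPS+Pilo relative to Control 5.3% fell and 4.85% rose. These shares are the background for this list and for those that follow. Dpp7, a dipeptidyl peptidase gene, fell in LPS+Pilo, at -0.67 (adjusted p = 0.00245), and in LPS, at -0.85 (adjusted p = 7.28e-04), both relative to Control. In LPS relative to Control, Ctsf, a cathepsin gene, fell at -0.82 (adjusted p = 0.00545). Sgsh, which removes sulfate from heparan sulfate, fell in LPS+Pilo relative to Control at -0.66 (adjusted p = 0.0338), at 1.02 to 1.16 TPM in LPS+Pilo and 2.02 to 2.54 TPM in Control; it was lost without any single LPS+Pilo library and without Control replicate 2 or 3 (adjusted p up to 0.125).

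Of 18 tested further membrane proteins and transporters, 3 rose and 5 fell in LPS relative to Control, and 3 rose and 5 fell in LPS+Pilo relative to Control. Slc15a3, which exports histidine and peptides from lysosomes, had 148, 137 and 156 TPM in LPS+Pilo, 208, 172 and 151 TPM in LPS, and 61.5, 53.8 and 63.8 TPM in Control. It rose in both treated groups, with log2 fold changes of 1.29 in LPS+Pilo (adjusted p = 1.93e-04) and 1.55 in LPS (adjusted p = 7.88e-05). Slc29a3, a nucleoside transporter gene, fell, at -1.25 in LPS+Pilo (adjusted p = 0.00248) and -1.16 in LPS (adjusted p = 0.0045). Laptm5, a lysosomal protein of blood cells, fell, at -0.97 (adjusted p = 1.33e-04) and -0.85 (adjusted p = 3.84e-04) in the same order. The 17 subunit genes of the V-ATPase, the pump that acidifies the lysosome, mostly did not pass. Atp6v0d2, the subunit known from osteoclasts and macrophages, fell in LPS+Pilo, at -1.58 (adjusted p = 2.38e-04), and in LPS, at -1.15 (adjusted p = 0.00209), both relative to Control, and Atp6v1b2 fell in LPS+Pilo, at -0.67 (adjusted p = 0.00515). The level of Atp6v0d2 was low throughout, at 0.57 to 0.92 TPM in LPS+Pilo, 1.11 to 1.55 TPM in LPS and 3.71 to 4.59 TPM in Control.

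Of the 3 tested cathepsin inhibitor genes, Cst7 and Cst3 fell in both treated groups. Cst3, the secreted inhibitor cystatin C, had 1183, 1381 and 1303 TPM in LPS+Pilo, 1199.9, 1257 and 1330.2 TPM in LPS, and 1685, 1842 and 1768 TPM in Control. All treated libraries were below all Control libraries, at log2 fold changes of -0.45 in LPS+Pilo (adjusted p = 0.00836) and -0.48 in LPS (adjusted p = 0.00792); under median-of-ratios scaling neither passed (0.0813 and 0.0545). Cst7, cystatin F, fell by 0.65 in LPS+Pilo (adjusted p = 5.22e-04) and by 0.67 in LPS (adjusted p = 5.17e-04) on the log2 scale.

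Of 20 tested genes of the mTORC1, Rag and calcineurin pathways that set the location of TFEB in the cell, 2 fell in each comparison with Control. Of all tested genes, 3.64% fell in LPS and 5.3% in LPS+Pilo. Lamtor1, the lysosomal anchor of the Ragulator complex, fell by 0.46 in LPS+Pilo (adjusted p = 0.00593) and by 0.37 in LPS (adjusted p = 0.0199) on the log2 scale. Flcn, the folliculin gene, fell by 0.44 in LPS (adjusted p = 0.0338), and Mlst8, an mTOR partner, fell by 0.45 in LPS+Pilo (adjusted p = 0.0448), both relative to Control. Except for Lamtor1 in LPS+Pilo, these calls were lost in several of the fits that left out 1 library, with adjusted p up to 0.134 for Flcn, 0.165 for Mlst8 and 0.0929 for Lamtor1 in LPS. The call of Lamtor1 in LPS+Pilo was lost under median-of-ratios scaling (adjusted p = 0.0577). Of 21 tested autophagy genes, Map1lc3a, an LC3 gene, fell in LPS relative to Control, at -0.62 (adjusted p = 0.00454). In LPS+Pilo relative to Control Wipi2 rose, at 0.65 (adjusted p = 0.0129), while Vps18 fell, at -0.43 (adjusted p = 0.0216), and Gabarap fell, at -0.28 (adjusted p = 0.0417). Wipi2 and Vps18 lost their call in some fits without 1 library, with adjusted p up to 0.0533 and 0.102. Gabarap lost its call in every fit without 1 library. It was called in 5 of 18 settings, with adjusted p up to 0.144. Of 8 tested genes for mannose 6-phosphate tagging and sorting, M6pr, a mannose 6-phosphate receptor, rose in LPS relative to Control, at 0.48 (adjusted p = 0.0421). Nagpa, which uncovers the mannose 6-phosphate tag, fell in LPS+Pilo relative to Control, at -0.29 (adjusted p = 0.0492). Those calls held in 8 and 4 of 18 settings.

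In LPS+Pilo relative to LPS limma called 0 genes in each of these lists, against 0.0444% of all tested genes. The further hydrolases had 4 genes with an unadjusted p under 0.05, the V-ATPase subunits 2, the autophagy genes 1, and the transporters, the sorting genes, the cathepsin inhibitors and the mTORC1 list 0. The share of all tested genes at that threshold was 6.76%. Of the 9 microglia and macrophage markers, limma called 0 in LPS+Pilo relative to LPS, and 5 had an unadjusted p under 0.05, all lower in LPS+Pilo and without overlap. These were Csf1r, Tyrobp, Spi1, Cx3cr1 and Trem2. Of all tested genes, 6.63% were lower in LPS+Pilo without overlap. Among the microglial markers, Trem2, a lipid receptor of phagocytes, and Tyrobp, its adaptor, fell in both comparisons with Control, Trem2 by 1.31 in LPS+Pilo (adjusted p = 1.11e-04) and by 0.83 in LPS (adjusted p = 0.00231) on the log2 scale, and Itgam rose, at 1.42 (adjusted p = 0.00822) and 1.58 (adjusted p = 0.00608). Cx3cr1, at 1.04 to 1.2 TPM in LPS+Pilo, also fell there relative to Control, at -1.03 (adjusted p = 0.00582). Csf1r fell in that comparison too, at -0.65 (adjusted p = 0.00489). The part of these markers in the lysosomal changes was not tested.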

How the data were processed

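TRIzol was used to isolate total RNA and the Illumina TruSeq RNA kit to build libraries, per the labels' protocols. The authors deposited 1 table of TPM per gene with 9 library columns. Tools named are STAR 2.7.1a, fastp 0.19.5 and DESeq2 1.24.0, with build GRCm39, per the submitters' processing notes; not given in the sources used here are the program behind the TPM, the annotation, the strand setting and how multimapping reads were treated. Reads of overlapping, antisense or near-identical genes may therefore be shared. Symbols came from GENCODE M21 by Ensembl identifier, which named 52081 of 55906 genes; no coordinates were taken from it.

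The filter was 1 TPM or more in at least 3 libraries. Values on the log2(TPM + 1) scale, where changes of low genes come out too small, were fitted over all 9 libraries with 1 mean per group in limma 3.58.1 (R 4.3.3; moderated variances with a trend on expression, 6 residual degrees of freedom). Tests were two-sided, with Benjamini-Hochberg adjustment over the 11260 tested genes, and a call needed an adjusted p under 0.05. The code was checked on simulated data. Depth is unknown, so precision is the spread between libraries (SD of TPM, SE of log2 fold changes). Samples were grouped by the labels.

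The 43 genes, the other lists and the tests were chosen with earlier results of these data known. Genes called in any comparison and the highest gene of each role are given with every library's value, and of other lists up to 3 called genes with the largest changes per comparison; the library values of Ppt1, Ctsb, Manba and Mcoln1 were chosen after they were seen. Some genes that this rule takes from the list of further hydrolases are not reported here. Alternatives were a pseudocount of 0.1, no filter, a filter of 5 TPM, quantile normalization, median-of-ratios scaling, no variance trend, a replicate block, only the 2 groups compared, leaving out each library and, chosen after seeing the data, leaving out Control replicate 1 and LPS replicate 3 together. E-box letters were searched on RefSeq promoter sequences.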

Additional observations from a re-analysis of the deposited data

How the results depend on the processing

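The number of lysosomal genes called depended on scaling and on single libraries. In LPS relative to Control it was 4, against 10 with quantile normalization, 11 with median-of-ratios scaling, 16 with Control replicate 1 and LPS replicate 3 left out, and 2 to 7 when single libraries were left out. In LPS+Pilo relative to LPS it was 0, and 1 with those 2 libraries left out, and 0 in each fit without 1 library. In LPS+Pilo relative to Control it was 8, against 14 with quantile normalization, 14 with median-of-ratios scaling, 13 without those 2 libraries and 5 to 10 without single libraries. Over all genes, LPS relative to Control gave 874 calls (464 higher, 410 lower), 1516 with quantile normalization (614 higher, 902 lower), 1297 with median-of-ratios scaling (629 higher, 668 lower), 483 with only the 2 groups compared, 3586 without both libraries (2930 higher, 656 lower) and 414 to 1020 without single libraries. LPS+Pilo relative to LPS gave 5 calls, 1 with no filter, 1 with quantile normalization, 2 with median-of-ratios scaling, 3 with no variance trend, 18 without both libraries and 0 to 6 without single libraries. LPS+Pilo relative to Control gave 1143 calls, 1726 with quantile normalization, 1521 with median-of-ratios scaling, 1967 without both libraries and 642 to 1286 without single libraries. Leaving out Control replicate 1 and LPS replicate 3 together raises LPS relative to Control by construction. Why these libraries deviated, and the cause of the other shifts, was not tested.

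In the comparison in which it was called, no lysosomal gene changed the sign of its fold change under any of the 18 settings. No clear pairing by replicate number was seen: over 9 same-numbered pairs the correlation of deviations ran from -0.225 to 0.165 and passed 0.1 in 2. With 3 libraries per group, this check cannot settle whether same-numbered libraries belong together. With the replicate block, 5, 0 and 9 lysosomal genes were called in LPS relative to Control, LPS+Pilo relative to LPS and LPS+Pilo relative to Control, and 808, 1 and 1064 genes in all; Fuca1 lost its call and Ctsl, Manba and Ppt1 gained one. The filter of 5 TPM left 41 of the 43 genes, without Idua and Mitf. Depth is unknown, so the limit for genes near 1 TPM, such as Mitf and Idua, could not be given, and 3 libraries a group limit the smaller changes.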
